A study of Mus musculus with 6 samples.

Results

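The 40 genes described here act in G2 and mitosis, the stages in which a cell that has copied its DNA prepares to divide and then separates its chromosomes. They were taken as the rows of the count tables whose gene symbol was one of 40 given symbols, out of 55341 genes listed. The rule uses symbols and no threshold on a measured value, although the symbols were listed with earlier results of these data known. RNA was sequenced from cultured mouse cerebellar granule neurons (CGNs) in 6 libraries, of which 3 came from cultures given DMSO, the vehicle, and 3 from cultures treated with GSK-126, which blocks EZH2, the methyltransferase that deposits H3K27me3 (trimethylation of lysine 27 of histone H3). The comparison asks how expression changes when EZH2 is inhibited from DIV3, the third day in vitro. The cells of both groups were granule neuron precursors (GNPs) from cerebella of CD1-IGS mice at P6-P8, enriched on a Percoll gradient, and all cultures were given cytosine arabinoside (AraC), a nucleoside that blocks DNA synthesis, at DIV2 against dividing non-neuronal cells. Each replicate was a culture made from pooled litters. The labels name the tissue as cerebellum and the time as D3, while the study's methods place RNA collection at DIV5, and the dose of GSK-126 in these cultures is not given in the sources used here.

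Many G2/M genes are silent in resting cells and are transcribed together as a cell approaches mitosis. The DREAM complex keeps them off in quiescent cells, and the MuvB core with B-MYB and FOXM1 turns them on, in part through a promoter element named the cell cycle genes homology region (CHR), while the factor NF-Y binds the CCAAT boxes that many of these promoters carry. In the postnatal cerebellum GNPs divide in the external granule layer under Sonic hedgehog and then leave the cell cycle for good as they become granule neurons, whereas glia, microglia and meningeal fibroblasts can go on dividing.

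A feature that the choice of genes did not use was the sequence of their promoters. RefSeq promoter windows (GRCm38.p6, from 250 bases before to 50 bases after the start of the gene) were matched to 34 of the 40 genes. They were searched on both strands for the CHR letters TTTGAA, which read TTCAAA when they lie on the other strand. They were also searched for CCAAT, which then reads ATTGG. The CHR letters were found in 24 of the 34 genes (70.6%), against 20.2% of all 27025 genes with a window, and CCAAT was found in 25 (73.5%), against 41.1%. Both occurred in 20 genes (58.8%), against 8.97% of all genes. The same search gave the CHR letters in 61.3% of 62 other mitosis genes, in 36.8% of 19 regulators of G2/M transcription and in 16.2% of 37 S phase genes. In the same order, CCAAT was found in 75.8%, 57.9% and 56.8% of these lists, and both in 50%, 31.6% and 8.11%. A match of letters is a description of the window and not a mapped site. Of the 24 genes, 12 had CHR letters that began before the start and 12, such as Aurka, Plk1 and Bub1b, had them only after it. The 150 bases before the start are shown for 4 genes chosen because they carry both elements there, with CHR letters close to the start. Prc1 and Ube2c met the same rule and are not shown. Position and spacing in the 4 therefore do not describe the other genes. The 4 are Cdk1, the kinase that starts mitosis, Top2a, the most abundant of the 40, Cdc20, the highest per length, and Kif11, which was listed at 0. Matches to either motif are in capitals, and each stretch is written 5′ to 3′ on the strand of its gene, which is the minus strand for chr10:69352913-69353062 (Cdk1), chr11:99024190-99024339 (Top2a) and chr4:118437344-118437493 (Cdc20) and the plus strand for chr19:37376232-37376381 (Kif11).
Cdk1: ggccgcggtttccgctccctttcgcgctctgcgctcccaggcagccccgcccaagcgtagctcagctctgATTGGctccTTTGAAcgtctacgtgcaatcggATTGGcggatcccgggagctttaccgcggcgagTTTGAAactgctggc
Top2a: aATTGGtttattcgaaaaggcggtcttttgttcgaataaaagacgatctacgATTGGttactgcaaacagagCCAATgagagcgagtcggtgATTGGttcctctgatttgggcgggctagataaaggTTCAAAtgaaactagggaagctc
Cdc20: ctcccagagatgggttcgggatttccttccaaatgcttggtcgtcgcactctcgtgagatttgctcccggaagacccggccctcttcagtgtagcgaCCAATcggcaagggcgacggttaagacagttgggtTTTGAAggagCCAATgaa
Kif11: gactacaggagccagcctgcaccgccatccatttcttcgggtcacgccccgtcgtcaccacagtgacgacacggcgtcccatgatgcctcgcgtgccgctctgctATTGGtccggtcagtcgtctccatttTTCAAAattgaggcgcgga
In Cdk1, Top2a and Kif11 the CHR letters nearest the start lay 28, 30 and 21 bases downstream of a CCAAT box. In Cdc20 they began 18 bases before the start, with 1 CCAAT box on either side. GENCODE places 26 of the bases shown for Cdk1 and 9 of those for Cdc20 in exons.

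**Figure D1:**
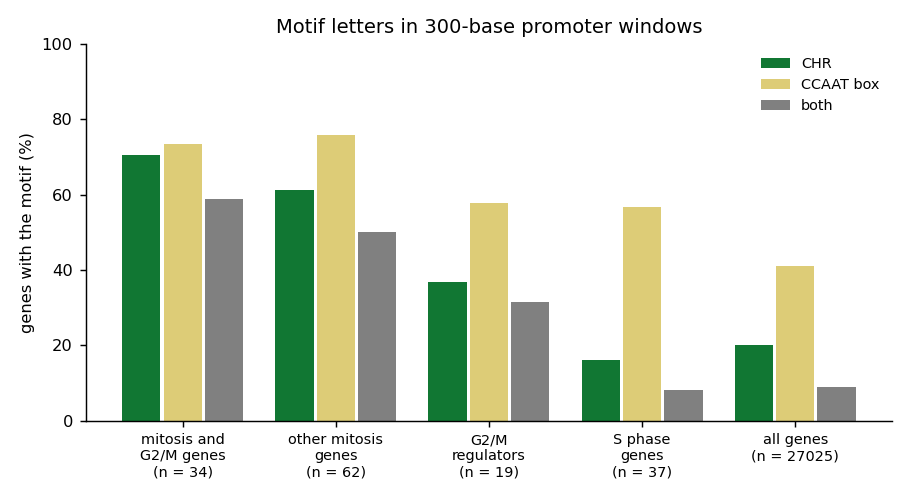
Bars give the percent of genes whose 300-base RefSeq promoter window holds the CHR letters, the CCAAT letters or both, for the 40 genes (34 with a window), for 3 other gene lists and for all genes. The CHR letters stood in 70.6% of the mitosis and G2/M genes and in 20.2% of all genes, while S phase genes (16.2%) did not exceed all genes.

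Reads on genes ranged from 7407189 to 13092763 per library. Markers of granule neurons, summed as CPM (counts per 1000000 reads on genes, scaled by TMM factors), gave 4882 to 7518 with DMSO and 3960 to 6007 with GSK-126, and the precursor markers Atoh1 and Gli1 were too low to test. The cultures also held RNA of cells that can divide. Astroglia markers summed to 2889 to 8598 CPM with DMSO and 2760 to 8893 with GSK-126, fibroblast and meningeal markers to 7466 to 9868 and 8298 to 10620, endothelial and mural markers to 379 to 659 and 571 to 776, oligodendrocyte lineage markers to 454 to 754 and 510 to 767, and microglia and macrophage markers to 336 to 710 and 476 to 882, with Trem2 listed at 0. Most of the endothelial and mural sum was Acta2, at 292 to 515 CPM with DMSO and 453 to 632 CPM with GSK-126. The endothelial markers Cdh5 and Pecam1 averaged 48.4 and 1.49 CPM over the 6 libraries, and Cldn5 was too low to test. Ependymal markers summed to 25.9 to 53.7 and 28.3 to 52.4 CPM. Without a block, edgeR's quasi-likelihood test called 0 of these markers after adjustment and 3, all granule neuron markers, at an unadjusted p under 0.05, and DESeq2 called 0 after adjustment. With the replicate number as a block, where 3.35% of all genes rose and 5.09% fell, 6 of 11 granule neuron markers fell and 1 rose, 4 of 11 tested microglia markers, 2 of 8 fibroblast markers and 1 of 6 tested endothelial and mural markers rose, astroglia and oligodendrocyte lists had 1 rise each, and of 7 tested GNP markers 1 rose and 1 fell. In DESeq2 with the block, 4 of these rises did not pass: Tubb3 of the granule neuron list (DESeq2 adjusted p = 0.381), Barhl1 of the GNP list (0.11), Gdf10 of the astroglia list (0.0628) and Mbp of the oligodendrocyte list (0.0555). The other calls passed there too. The part of these cell types in the values of the mitosis genes was not tested.

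No G2/M gene passed the test between GSK-126 and DMSO, and RNA of all but 2 of the 40 was detected in every library of both groups. The 38 detected genes had 24 to 1790 counts per library (median 200.5), and all 38 were tested among 16729 genes. The 40 genes summed to 1160, 917 and 973 CPM in DMSO replicates 1, 2 and 3, and to 1301, 876 and 1059 CPM in GSK-126 replicates 1, 2 and 3. The groups overlapped, with means of 1017 ± 127 CPM and 1079 ± 213 CPM (SD, n = 3 each), a ratio of 1.06. Without the block, 0 of 38 genes passed an adjusted p of 0.05, as did 0 of all genes (0%). At an unadjusted p under 0.05 this edgeR fit called 665 genes (3.98%), of which 0 were among the 38, and DESeq2 called 21 genes after adjustment (0.126%), again with 0 of the 38. In bulk RNA such as this, fewer cells of a type and less RNA per cell cannot be told apart.

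Libraries with the same replicate number deviated together, and a fit that takes this number as a block therefore stands beside each result. With it, 561 of all genes tested rose (3.35%) and 851 fell (5.09%), while 0 of the 38 passed in either direction. With upper-quartile factors in place of TMM the block fit called 727 higher and 698 lower, and again 0 of the 38. At an unadjusted p under 0.05 the block fit called 3595 genes (21.5%) and 1 of the 38 (2.63%), which was Aurka. DESeq2 with the block called 987 of the 12837 genes to which it gave an adjusted p (7.69%). These included 0 of the 38, of which Cdc25c was given no adjusted p. The 95% intervals of the block fit bounded what was not seen: for all 38 genes they excluded a change of 2-fold in either direction, and for 34 they excluded one of 1.5-fold. Without the block, 37 intervals lay within 2-fold and 14 within 1.5-fold.

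**Figure D2:**
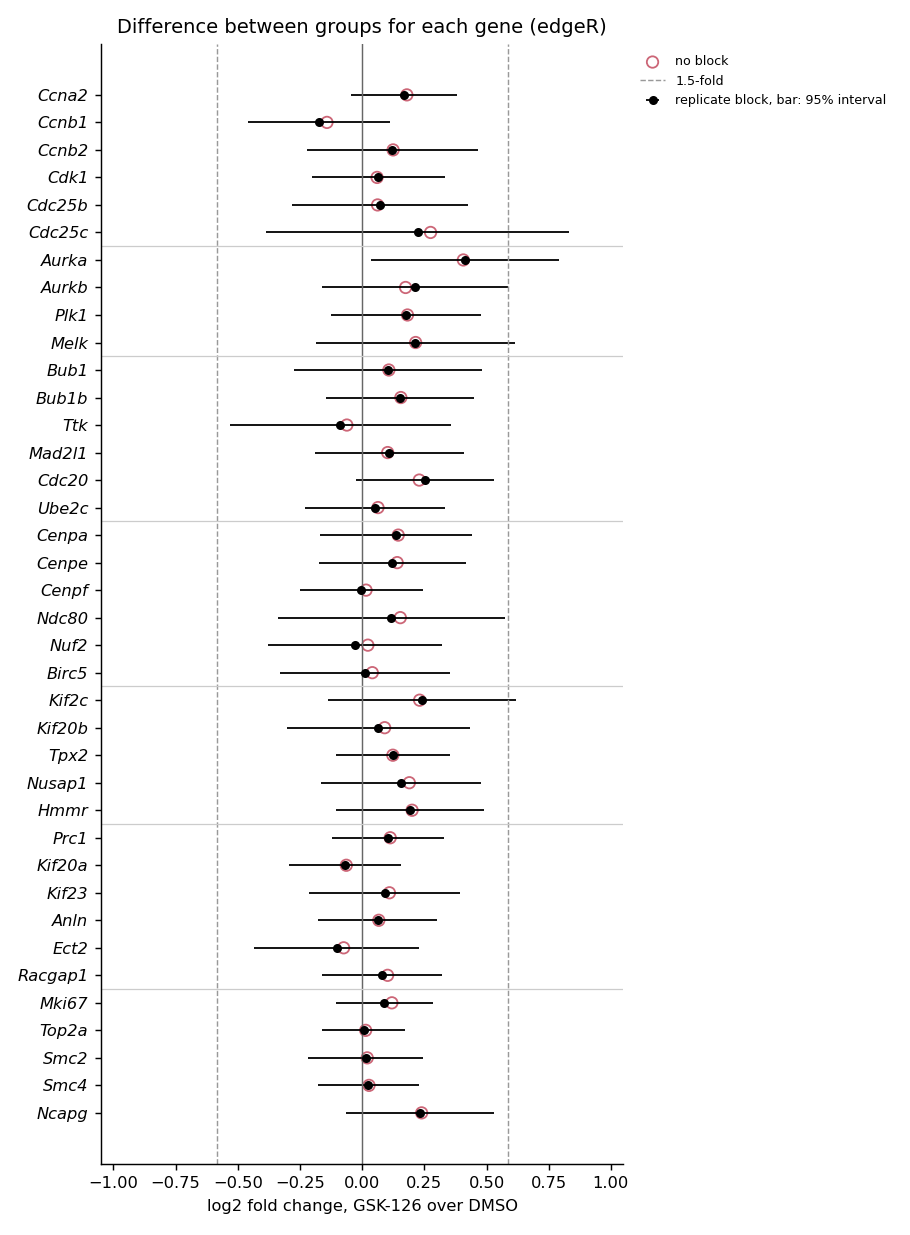
Log2 fold change of GSK-126 over DMSO for the 38 detected genes, grouped by role (grey lines), from edgeR with the replicate block (black points, with 95% intervals as bars) and without it (open circles). Block values run from −0.17 (Ccnb1) to 0.41 (Aurka), 32 lie above 0 and 6 below, and only the bar of Aurka lies clear of 0.

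The median log2 fold change of the 38 was 0.11 without the block and 0.10 with it, beside −0.0071 and −0.0056 over all genes tested. Without the block, this small positive median moved when a single library was left out and its partner was kept. Without GSK-126 replicate 1 it was −0.034, and without GSK-126 replicate 2 it was 0.27, while the ratio of summed CPM went from 1.06 to 0.951 and 1.16. Each such omission breaks a pair, so these shifts also hold the difference between replicate numbers. Within pairs of libraries with the same number, 33 of the 38 were higher with GSK-126 in pair 1, 15 in pair 2 and 31 in pair 3, with medians of 0.18, −0.064 and 0.15 on the log2 scale. Over all genes tested these medians were 0.00021, −0.026 and −0.0080. A rise in all 3 pairs was seen for 8 of the 38 (21.1%), against 19.5% of all genes, and a fall in all 3 for 0, against 22.8%.

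**Figure D3:**
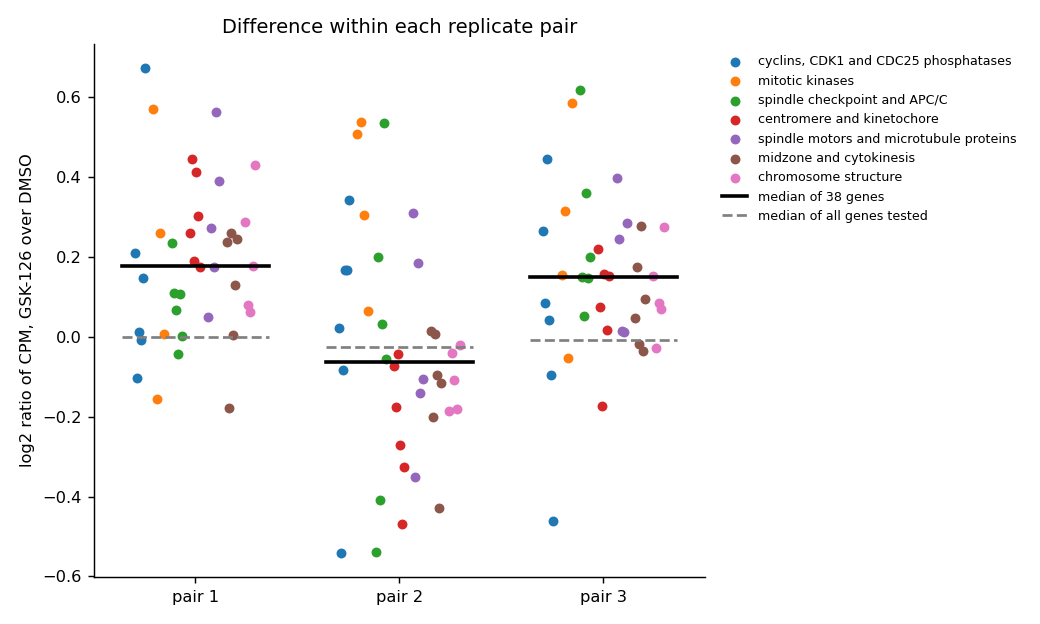
Each point is 1 gene's log2 ratio of CPM, GSK-126 over DMSO, in libraries with the same replicate number, coloured by role. The solid line is the median of the 38 genes (0.18, −0.064 and 0.15 in pairs 1, 2 and 3) and the dashed line that of all genes tested. Points lie mostly above 0 in pairs 1 and 3 and on both sides of it in pair 2.

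Most of the 38 shared an order of the replicate numbers. The mean of pair 1 was the highest of the 3 pairs in 35 of 38 genes (92.1%), against 33.6% of all genes, and the mean of pair 2 was the lowest in 29 (76.3%), against 38.2%. GSK-126 replicate 1 was the highest of all 6 libraries in 29 genes, a count for which no share over all genes was computed. Several other lists, summed, were also highest in replicate 1 and lowest in replicate 2 of both groups. Astroglia markers were at 8598, 2889 and 4829 CPM in DMSO replicates 1, 2 and 3 and at 8893, 2760 and 4769 CPM with GSK-126. Microglia and macrophage markers were at 710, 336 and 669 CPM and at 882, 476 and 757 CPM, and oligodendrocyte lineage markers at 754, 454 and 600 CPM and at 767, 510 and 685 CPM. The other mitosis genes and the S phase genes had this order too. Fibroblast and meningeal markers and endothelial and mural markers did not, and were highest in replicate 3 of both groups. The fibroblast list was at 7466, 7919 and 9868 CPM with DMSO and at 9077, 8298 and 10620 CPM with GSK-126. The endothelial and mural list was at 379, 483 and 659 CPM and at 571, 581 and 776 CPM. The part of these cell types in the order of the mitosis genes was not tested.

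**Figure D4:**
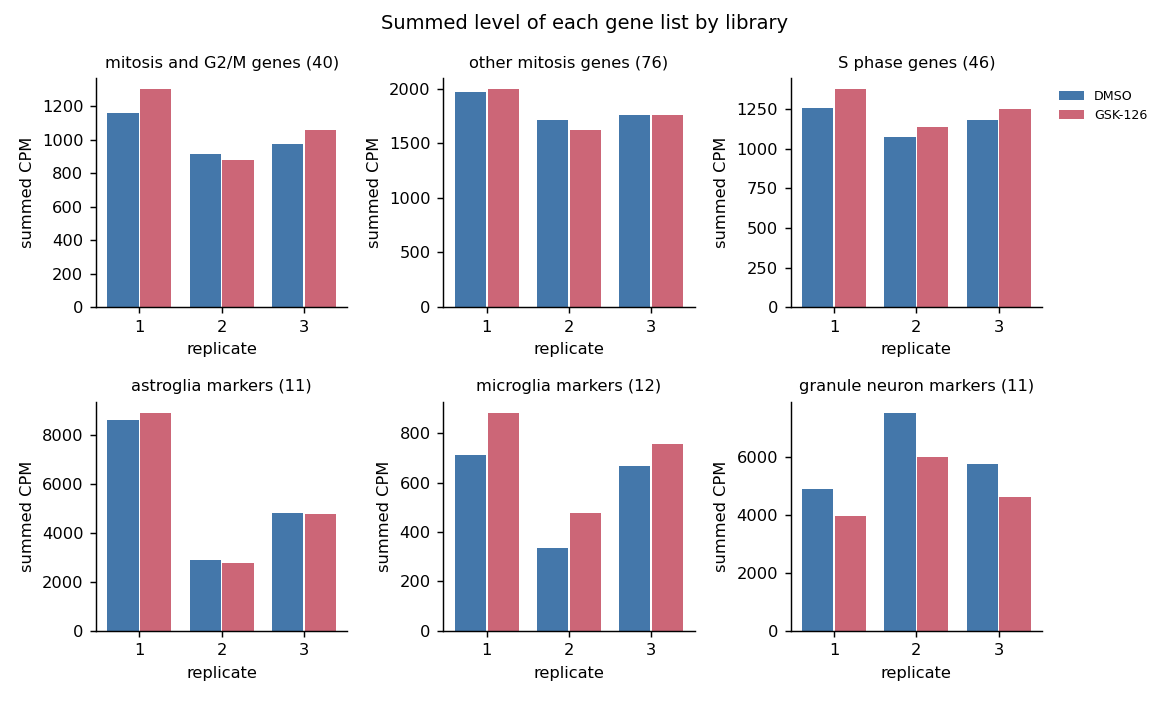
Summed CPM of 6 gene lists in each library, by replicate number, for DMSO (blue) and GSK-126 (red). The bars carry no error because each is 1 library, and numbers in brackets are genes listed. Mitosis genes, S phase genes, astroglia markers and microglia markers were highest in replicate 1 and lowest in replicate 2 of both groups, and granule neuron markers were the reverse. S phase genes and microglia markers were higher with GSK-126 in each of the 3 pairs, and granule neuron markers were lower in each.

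Per length of exon, the 38 genes ran from 0.94 RPKM (CPM per kilobase of exon) for Cdc25c to 14.4 RPKM for Cdc20 in the mean of 6 libraries, with a median of 4.48 RPKM against 6.12 RPKM for all genes tested. After Cdc20 came Smc4 (11.95 RPKM), Ccna2 (11.8), Top2a (11.3) and Kif20a (11.1). These neighbours did not separate, since Cdc20 spanned 8.56 to 19.8 RPKM over the libraries and Smc4, at 10.99 to 13.4 RPKM, lay inside that range. Cdc20 stood above 75.2% of all genes tested, Cdk1 above 45.2% and Cdc25c above 11.3%.

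The cyclins, CDK1 and the CDC25 phosphatases form the switch that starts mitosis: cyclins A2, B1 and B2 bind and activate CDK1, and CDC25B and CDC25C remove its inhibitory phosphates. Of these 6 genes 0 passed, and their summed CPM was 157, 110 and 127 with DMSO and 167, 107 and 140 with GSK-126. Ccna2 (ENSMUSG00000027715.9, GRCm38 chromosome 3, 36564865 to 36572150) was at 54.1, 39.2 and 42.9 CPM with DMSO and at 62.6, 39.8 and 51.6 CPM with GSK-126. Each GSK-126 library was above its DMSO partner, but the groups overlapped, and the log2 fold change with the block was 0.17 (SE 0.10, edgeR adjusted p = 0.367). In Ccna2, 12.5% of exon bases are shared with Exosc9 on the other strand. Ccnb1, which encodes the main mitotic cyclin, had the lowest fold change of the 38. It was at 35.8, 24.6 and 27.8 CPM with DMSO and at 33.3, 16.9 and 29.4 CPM with GSK-126 (chromosome 13, 100778650 to 100786570). Only GSK-126 replicate 2 lay below all DMSO libraries, and the log2 fold change was −0.17 (SE 0.14, edgeR adjusted p = 0.504 with the block). Cdk1 itself spanned 19.9 to 30.3 CPM with DMSO and 22.4 to 30.1 CPM with GSK-126, a log2 fold change of 0.064 (SE 0.13). Ccnb2 spanned 11.6 to 19.3 and 12.03 to 19.5 CPM, and Cdc25b 9.95 to 15.1 and 11.2 to 14.3 CPM. Cdc25c was the least abundant of the 38, at 3.72 to 4.49 CPM with DMSO and 3.20 to 7.18 CPM with GSK-126, and had the widest error (log2 fold change 0.22, SE 0.29), with 12.7% of its exon bases shared with Gm3550 on the other strand.

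**Figure D5:**
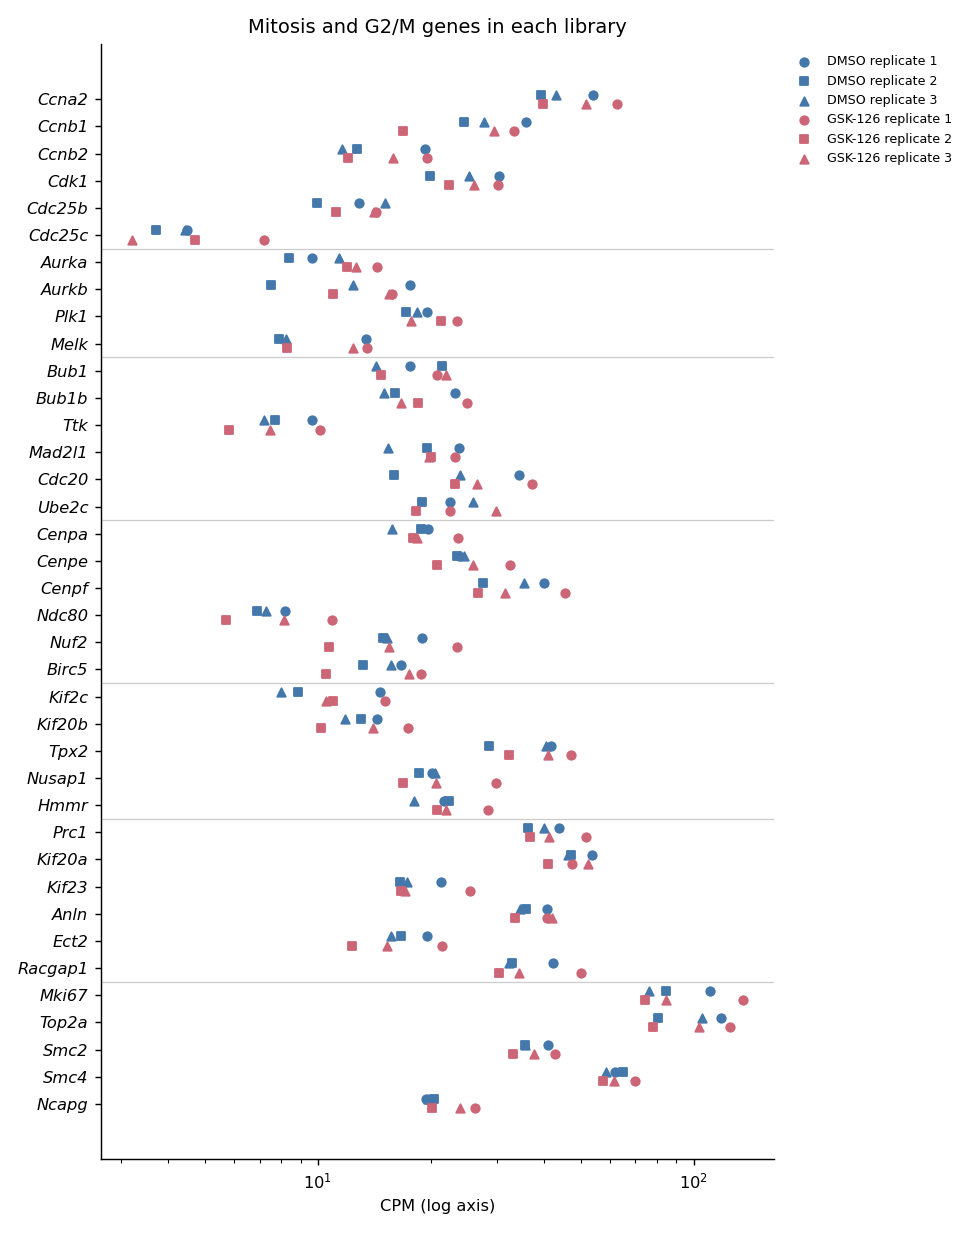
CPM of each of the 38 detected genes in each library on a log axis, with genes grouped by role and the replicate number shown by the marker. Blue points are DMSO and red points are GSK-126 libraries. Circles (replicate 1) lie to the right in most rows, and the colours separate without overlap only for Aurka.

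The mitotic kinases had the highest group median, at 0.21 on the log2 scale with the block, over 4 tested genes of which 0 passed. Aurka (ENSMUSG00000027496.15, chromosome 2, 172356190 to 172370535) encodes Aurora A, the kinase of the centrosome and spindle poles. It was at 9.67, 8.37 and 11.4 CPM with DMSO and at 14.4, 11.9 and 12.7 CPM with GSK-126. All 3 GSK-126 libraries lay above all 3 DMSO libraries, which held for 1 of the 38 genes (2.63%) and for 4.72% of all genes, and 0 of the 38 showed the opposite, against 4.72% of all genes. The log2 fold change of Aurka was 0.41 with the block (SE 0.18, 95% interval 0.034 to 0.79, edgeR unadjusted p = 0.0342, adjusted p = 0.185) and 0.41 without it (SE 0.20, adjusted p = 0.953), so it did not pass in either fit. Aurkb, the chromosomal passenger kinase, spanned 7.53 to 17.6 CPM with DMSO and 10.96 to 15.8 CPM with GSK-126. Plk1, which acts at many steps of mitosis and shares 7.09% of exon bases with Gm44985, spanned 17.2 to 19.6 and 17.7 to 23.4 CPM, and Melk, a kinase of dividing progenitor cells, 7.91 to 13.5 and 8.27 to 13.5 CPM. Nek2, a kinase of centrosome separation, was listed at 0 in all 6 libraries.

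The spindle checkpoint holds anaphase until every chromosome is attached, through BUB1, BUBR1 (Bub1b), MPS1 (Ttk) and MAD2 (Mad2l1), and it acts on CDC20, which activates the ubiquitin ligase APC/C, for which UBE2C supplies ubiquitin. Of the 6 genes 0 passed. Cdc20 (ENSMUSG00000006398.15, chromosome 4, 118432901 to 118437352) was at 34.4, 16.0 and 23.9 CPM with DMSO and at 37.1, 23.2 and 26.5 CPM with GSK-126. It was higher with GSK-126 in each pair, yet the spread between replicate numbers was larger than the difference within pairs 1 and 3, and the log2 fold change was 0.25 with the block (SE 0.13, edgeR adjusted p = 0.283). Bub1b was also higher in each pair, by 0.11, 0.20 and 0.15 on the log2 scale, and spanned 15.0 to 23.1 CPM with DMSO and 16.6 to 24.9 CPM with GSK-126. Bub1 moved in different directions, by 0.23, −0.54 and 0.62, over 14.3 to 21.98 CPM. Ttk (5.80 to 10.1 CPM over the 6 libraries) had a log2 fold change of −0.088 (SE 0.21). Mad2l1 (15.3 to 23.8 CPM) and Ube2c (18.3 to 29.7 CPM) had values of 0.11 and 0.053, and 22.8% of the exon bases of Ube2c are shared with Tnnc2 on the other strand.

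At the centromere and kinetochore, where chromosomes join the spindle, CENP-A is the centromeric histone, CENP-E a motor, CENP-F a kinetochore protein, NDC80 and NUF2 subunits of the complex that binds microtubules, and survivin (Birc5) a passenger protein. Of the 6 genes 0 passed, and none was higher with GSK-126 in pair 2, where their summed CPM was 105 with DMSO and 92.3 with GSK-126. In pair 1 all 6 were higher, at sums of 127 and 155 CPM. Block log2 fold changes lay between −0.029 for Nuf2 and 0.14 for Cenpa. Cenpf was the most abundant of the group, at 27.4 to 39.9 CPM with DMSO and 26.6 to 45.5 CPM with GSK-126, and Cenpe was next at 23.4 to 24.5 and 20.7 to 32.4 CPM. Cenpa spanned 15.8 to 19.7 and 17.9 to 23.6 CPM and Nuf2 14.9 to 19.0 and 10.7 to 23.4 CPM. Birc5 (13.2 to 16.7 and 10.5 to 18.8 CPM) and Ndc80 (6.88 to 8.17 and 5.69 to 10.9 CPM) were lower, and in all 6 genes GSK-126 replicate 1 was above GSK-126 replicate 2.

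The motors and microtubule proteins of the spindle were tested for 5 of 6 genes, and 0 passed. Kif11 (ENSMUSG00000012443.4, chromosome 19, 37376403 to 37421859), the motor that pushes spindle poles apart, was listed at 0 in every library, as Nek2 was. Other genes listed at 0 in all 6 libraries were Plk4, Ccnb3 and Nfya, and since Nfya is a subunit of a factor that most cells use, a listed 0 is not read here as absence of RNA. Hmmr (chromosome 11, 40701395 to 40733422), a spindle assembly protein, was at 21.6, 22.3 and 18.0 CPM with DMSO and at 28.4, 20.7 and 21.98 CPM with GSK-126, a log2 fold change of 0.19 (SE 0.14, edgeR adjusted p = 0.480 with the block). GSK-126 replicate 1 lay above every DMSO library and DMSO replicate 3 below every GSK-126 library, and the other libraries were interleaved. Kif2c (chromosome 4, 117159639 to 117182639), a kinesin that shortens microtubules at the centromere, was at 14.6, 8.84 and 7.98 CPM with DMSO and at 15.1, 10.96 and 10.5 CPM with GSK-126, with a log2 fold change of 0.24 (SE 0.18, edgeR adjusted p = 0.480 with the block). It was higher in all 3 pairs, and the groups overlapped through the high DMSO replicate 1. Tpx2, the activator of Aurora A on the spindle, was the most abundant of the group, at 28.5 to 41.6 CPM with DMSO and 32.3 to 47.0 CPM with GSK-126. Nusap1, which bundles spindle microtubules, spanned 18.6 to 20.5 and 16.9 to 29.8 CPM, and Kif20b, a late mitotic kinesin, 11.8 to 14.4 and 10.2 to 17.4 CPM.

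The 6 genes of the midzone and of cytokinesis build the bundle of microtubules between separating chromosomes and the ring that cleaves the cell, and 0 of them passed. Kif20a, a kinesin of the midzone, was at 53.6, 47.1 and 46.4 CPM with DMSO and at 47.4, 40.9 and 52.4 CPM with GSK-126. The libraries of the groups were interleaved, and the log2 fold change was −0.069 (SE 0.11, edgeR adjusted p = 0.771 with the block). It is the most exposed of the 38 to reads of a neighbour, since 29.3% of its exon bases are shared with Cdc23 on the other strand. Prc1 (chromosome 7, 80294450 to 80316259), which bundles midzone microtubules, was at 43.7, 36.3 and 39.98 CPM with DMSO and at 51.6, 36.6 and 41.3 CPM with GSK-126. The fold change on the log2 scale was 0.10 (SE 0.11, edgeR adjusted p = 0.640 with the block), only GSK-126 replicate 1 was clear of the DMSO range, and 11.1% of its exon bases are shared with Rccd1. Anln, a scaffold of the contractile ring, spanned 34.6 to 40.6 and 33.4 to 42.0 CPM. The centralspindlin genes Racgap1 (32.2 to 42.2 and 30.4 to 50.05 CPM) and Kif23 (16.6 to 21.3 and 16.6 to 25.5 CPM) had log2 fold changes of 0.081 and 0.090. Ect2, which activates RhoA at the cleavage site, was at −0.10 (SE 0.16), over 15.7 to 19.6 and 12.4 to 21.4 CPM.

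The genes of chromosome structure were the most abundant group, with sums of 351, 285 and 295 CPM for DMSO and 399, 263 and 311 CPM for GSK-126, and 0 of 5 passed. Top2a (ENSMUSG00000020914.17, chromosome 11, 98992943 to 99024189), the topoisomerase that untangles sister chromatids, was at 118, 80.2 and 106 CPM with DMSO and at 125, 78.0 and 104 CPM with GSK-126. Each pair lay close together while replicate 2 was low in both groups, and its interval was the narrowest of the 38: a log2 fold change of 0.0063 (SE 0.080, edgeR adjusted p = 0.977 with the block), or 0.895-fold to 1.13-fold at 95%. Mki67 (ENSMUSG00000031004.8, chromosome 7, 135689784 to 135716361), the Ki-67 protein that coats mitotic chromosomes and marks cycling cells, was at 111, 84.4 and 76.1 CPM with DMSO and at 135, 74.2 and 84.5 CPM with GSK-126. GSK-126 replicate 1 was the highest library and GSK-126 replicate 2 the lowest, so both extremes came from the treated group. The log2 fold change of Mki67 was 0.090 with the block (SE 0.093, edgeR adjusted p = 0.634) and 0.12 without it (SE 0.25). Smc4 (chromosome 3, 69004738 to 69034623), a condensin subunit, was at 61.8, 64.9 and 58.4 CPM with DMSO and at 69.9, 57.3 and 61.3 CPM with GSK-126, a log2 fold change of 0.024 (SE 0.097, edgeR adjusted p = 0.918 with the block). The other condensin genes were Smc2, at 35.5 to 41.0 and 33.0 to 42.8 CPM, and Ncapg (chromosome 5, 45669919 to 45700546). Ncapg was at 19.4, 20.4 and 19.7 CPM with DMSO and at 26.2, 20.1 and 23.8 CPM with GSK-126. The DMSO libraries were within 1 CPM of each other and 2 of 3 GSK-126 libraries were above them, with a log2 fold change of 0.23 (SE 0.14, edgeR adjusted p = 0.368 with the block), and 13.4% of its exon bases are shared with Lcorl on the other strand.

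Of 76 other mitosis genes 74 were tested, and 0 passed in either fit, with a median log2 fold change of 0.072 with the block. Of 46 S phase genes, all tested, 0 passed without the block, and with it 1 rose and 1 fell, beside 3.35% and 5.09% of all genes. Pcna, the sliding clamp of DNA replication, was at 69.7, 45.6 and 67.8 CPM with DMSO and at 85.0, 63.1 and 85.7 CPM with GSK-126, and rose by 0.36 on the log2 scale (SE 0.090, edgeR adjusted p = 0.0139 with the block). It was higher in all 3 pairs, although the groups overlapped, and without replicate 2 its adjusted p was 0.07 (edgeR, block). Gins2, a subunit of the replicative helicase, was at 43.5, 83.3 and 50.8 CPM with DMSO and at 40.4, 42.9 and 41.4 CPM with GSK-126, and fell by 0.46 (edgeR adjusted p = 0.0307 with the block), with all GSK-126 libraries below all DMSO libraries, a single high DMSO library, replicate 2, and 67.3% of its exon bases shared with Gse1 on the other strand. Without replicate 2 Gins2 no longer passed, at −0.20 (edgeR adjusted p = 0.439, block), and in DESeq2 with the block its adjusted p was 0.0749. The S phase median was 0.13, and the list summed to 1258, 1077 and 1184 CPM with DMSO and 1376, 1136 and 1252 CPM with GSK-126, higher in each pair. Whether S phase and mitosis genes differed from each other in their response was not tested.

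Of 23 regulators of G2/M transcription 22 were tested and 0 passed without the block. With it, Cdkn1a, which encodes the CDK inhibitor p21, rose and Nfyc, a subunit of the CCAAT-binding factor NF-Y, fell. These are 1 of 22 in each direction, where 3.35% of all genes rose and 5.09% fell, a share too near the background to be a result about the regulators. Cdkn1a was at 96.3, 108 and 239 CPM with DMSO and at 126, 157 and 239 CPM with GSK-126, a log2 fold change of 0.31 (SE 0.090, edgeR adjusted p = 0.0405 with the block), and the members of pair 3 were alike. It did not pass without replicate 1 or 2 (edgeR adjusted p = 0.117 and 0.282, block), nor in DESeq2 with the block (adjusted p = 0.0621). Nfyc was at 71.4, 74.4 and 56.3 CPM with DMSO and at 47.4, 63.8 and 48.8 CPM with GSK-126, a log2 fold change of −0.34 (SE 0.10, edgeR adjusted p = 0.0390 with the block), lower in every pair. It did not pass without replicate 1 or 2 (edgeR adjusted p = 0.498 and 0.0729, block), with upper-quartile factors (0.0709) or in DESeq2 with the block (0.124). The median of the 22 was −0.037 with the block.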

How the data were processed

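The authors used Trimmomatic 0.38 for trimming and STAR 2.7.2b for alignment to the mouse genome (mm10 per the submitters' processing notes), counted reads on exons with HTSeq and a Gencode GRCm38.p4 annotation, and deposited raw counts per gene of each library; the strand setting of the counting is not given in the sources used here. Lines that name no gene held 58.7% to 60.7% of the reads listed and were left out. The 55341 symbols were those of GENCODE M21, which gave identifiers, coordinates, exon lengths and overlaps, and reads in exons shared by genes on opposite strands may be split or assigned to either. Counts were tested in R 4.3.3 with edgeR 4.0.16 (limma 3.58.1): TMM factors, genes kept by filterByExpr, and the quasi-likelihood test over all 6 libraries with Benjamini-Hochberg adjustment over 16729 genes at 0.05, without a block. No copy of a library was found (chi-square per degree of freedom of 12.9 or more).

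Replicate numbers come from the sample titles. Each library's log2 CPM minus its group mean correlated across genes at 0.544, 0.606 and 0.467 between libraries of the same number. The numbers therefore pair the libraries, and the blocked fit is given beside. Between different numbers the correlations were 0.00056 or less. These are not separate evidence, because deviations from a group mean cancel out over the 3 libraries of a group. P-values of the fit without the block measure the spread between these pooled-litter cultures. Those of the blocked fit measure the spread left once differences between replicate numbers are taken out. Alternatives were DESeq2 1.42.0, upper-quartile factors, total counts, other filters, the block and each library or pair left out. The 40 genes, the other lists and the marker lists were chosen with earlier results of these data known. All 40 genes are named; values per library are given for the 6 of highest mean CPM and the next 6 by smallest p with the block, and from the other lists for genes that passed. The result of 1 marker gene, and the summed level of its list, are left out. Both edgeR fits were run on simulated counts. These were drawn with replicate effects and the spread of the blocked fit, so they match that fit by design. They cannot show how either fit performs on these libraries.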

Additional observations from a re-analysis of the deposited data

How the results depend on the processing

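Without the block, 0 of the 38 genes passed, and 0 passed under any of 17 other settings. Of 646 values of single genes under these settings, 574 kept the direction of the fit without the block and 72 reversed, across 30 genes. Of these, 2 reversed in settings that kept all libraries: Cenpf and Nuf2, with the replicate block (−0.0028 and −0.029) and with the block in DESeq2 (−0.00013 and −0.033). Leaving out each library, or each pair with the block, gave these ranges of log2 fold change for the 30: Anln −0.0429 to 0.179, Aurkb −0.0848 to 0.511, Birc5 −0.108 to 0.274, Bub1 −0.143 to 0.425, Bub1b −0.0231 to 0.386, Ccnb1 −0.33 to 0.117, Ccnb2 −0.0464 to 0.395, Cdc20 −0.00279 to 0.552, Cdc25b −0.082 to 0.213, Cdc25c −0.0674 to 0.521, Cdk1 −0.0799 to 0.228, Cenpe −0.0351 to 0.304, Cenpf −0.225 to 0.189, Ect2 −0.308 to 0.11, Kif20a −0.188 to 0.042, Kif20b −0.0972 to 0.287, Kif23 −0.108 to 0.244, Mad2l1 −0.0448 to 0.284, Mki67 −0.173 to 0.308, Ndc80 −0.0953 to 0.378, Nuf2 −0.309 to 0.274, Nusap1 −0.0599 to 0.376, Prc1 −0.023 to 0.236, Racgap1 −0.128 to 0.262, Smc2 −0.0649 to 0.127, Smc4 −0.0428 to 0.129, Top2a −0.144 to 0.192, Tpx2 −0.0301 to 0.273, Ttk −0.29 to 0.131 and Ube2c −0.137 to 0.23. Cdkn1a ranged from −0.0607 to 0.77 when libraries or pairs were left out. The median of the 38 ranged from −0.034 (without GSK-126 replicate 1) to 0.27 (without GSK-126 replicate 2), and the ratio of summed CPM from 0.951 to 1.16 under the same omissions. Single libraries were left out without the block, and the partner library was kept. The ranges above therefore also hold differences between replicate numbers.

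Over all genes, DESeq2 called 20 higher and 1 lower, and no filter on low counts gave 9 and 1. The replicate block gave 561 and 851 with edgeR and 369 and 618 with DESeq2, and with upper-quartile factors 727 and 698, so the share of higher calls depended on scaling. With pairs left out the block gave 337 to 558 higher and 496 to 719 lower. Regulators of G2/M transcription had 1 higher and 1 lower with the block, 1 higher with upper-quartile factors, and 1 and 2 without replicate 3. S phase genes had 1 higher and 1 lower with the block, with upper-quartile factors and without replicate 1 or 3, and 1 higher in DESeq2. Other mitosis genes had 1 lower with the block without replicate 3. The cause was not tested. Errors were widest for low genes such as Cdc25c, Ndc80 and Ttk.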
